A study of Mus musculus with 18 samples.

Results

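ER chaperones and genes of the unfolded protein response were followed by RNA-Seq in the thyroid, pituitary and hypothalamus of WT mice and of mice with the THRB K146Q sumoylation mutation. The set holds 40 of the 24054 genes in the thyroid table, chosen by gene symbol, and each of the 40 is listed in all 3 tables and passed the filter on low values in each tissue. K146Q mice were homozygous for a whole-body knockin of 1 base (A to C) that replaces a lysine of the thyroid hormone receptor THRB with glutamine, so every cell carried it, and no promoter or Cre restricts it to a tissue. WT mice were of the same strain, C57BL/Ntac by the sample labels and spelled C57BL/NTC in the study's paper. All mice were untreated males at 3 months of age, and each genotype was represented by 3 mice in each tissue. These were WT mice 1, 2 and 43 and K146Q mice 60, 62 and 83. The libraries held 14902330 to 21230050 reads in genes. A value is given below in CPM, reads scaled to a common library size by the depositors, in the order WT mice 1, 2 and 43, then K146Q mice 60, 62 and 83. The mutation changes 1 base, so Thrb RNA does not check the genotype labels. Thrb in the thyroid was 14.9, 16.3 and 15.6 CPM in WT and 7.19, 5.64 and 4.98 CPM in K146Q (log2 change −1.33 ± 0.15 SE, limma adjusted p = 0.000621). In the pituitary it was 104, 97.7 and 106 CPM in WT and 159, 142 and 184 CPM in K146Q (log2 change 0.65 ± 0.10, limma adjusted p = 0.00285).

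Secreted and membrane proteins are threaded into the ER through the Sec61 translocon, folded by the chaperones BiP (Hspa5) and GRP94 (Hsp90b1) and by the lectins calreticulin and calnexin, and given their disulfide bonds by protein disulfide isomerases. When unfolded protein builds up, the sensors IRE1α (Ern1), ATF6 and PERK (Eif2ak3) raise folding capacity, send misfolded chains to ER-associated degradation (ERAD) and, through ATF4 and CHOP (Ddit3), switch on genes of amino acid supply and stress. The thyroid follicular cell makes the very large glycoprotein thyroglobulin, and pituitary hormone cells secrete glycoprotein and peptide hormones, so both depend on this machinery.

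In the K146Q pituitary, 9 of the 40 genes (22.5%, against 6.36% of all genes tested) rose and none fell: the chaperones and partners Hspa5, Hsp90b1, Sdf2l1, Manf and Creld2, the lectin Calr, the isomerases Pdia3 and Pdia6, and the ERAD mannosidase-like gene Edem2, by 1.25 to 1.72 fold. When 1 library was left out, 6 to 8 rose and 0 to 1 fell. In the K146Q thyroid, 11 of the 40 (27.5%, against 18.1% of all genes tested) fell and none rose, with 4 to 15 falling when 1 library was left out. The chaperones, lectins and isomerases were not among the 11: the sensors Ern1, Atf6 and Eif2ak3, the ATF4 targets Asns and Chac1, the ERAD genes Edem1, Derl1 and Derl3, and Sec61b, Sec23b and Sec24d of the translocon and the COPII coat fell, to between 0.331 and 0.818 of the WT level. Without WT mouse 2, the folding genes Hsp90b1, Dnajb11, Creld2, Pdia5 and Ero1lb fell in the thyroid too. In the hypothalamus none of the 40 passed the test.

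Many of these genes are known to be switched on by ATF6 and XBP1 through the ER stress response element, CCAAT and CCACG with 9 bases between them. RefSeq promoters (GRCm38.p6, from 250 bases before to 50 bases after each start) were found for 35 of the 40 genes and not for Manf, Hyou1, Derl1, Sec61a1 and Atf6. The element, searched on both strands, was present in 10 of the 35 (28.6%) against 0.119% of all 32851 promoters of that length and 0.137% of their 27025 genes. Because the set was made of genes of this response, an excess over all promoters, here or below, says nothing about the mutation. It was found in 5 of the 8 matched genes that rose in the pituitary (Hspa5, Hsp90b1, Creld2, Calr and Pdia6) and in 1 of the 9 matched genes that fell in the thyroid (Derl3), and Dnajc3, Canx, Ero1lb and Syvn1 held it too. The elements of the genes that moved in a tissue are shown, 5′ to 3′ on the strand of the gene, to let their letters and spacing be compared. Capitals mark the fixed letters, with 5 bases on either side for Hspa5, whose stretch lies inside an annotated 5′ UTR of a longer transcript, and 12 for the others. They lie at chr2:34772020-34772048 for Hspa5 (+ strand), chr10:86705626-86705668 and chr10:86705521-86705563 for the pair of copies in Hsp90b1 (− strand), chr15:88819508-88819550 for Creld2 (+), chr8:84847063-84847105 for Calr (−), chr12:17266479-17266521 for Pdia6 (+) and chr10:75893230-75893272 for Derl3 (+). Where the gene's own strand reads CGTGG and then ATTGG, the element lies on the opposite strand, as in the second Hsp90b1 copy, Creld2, Calr and Derl3.
Hspa5: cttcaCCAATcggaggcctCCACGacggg
Hsp90b1, first: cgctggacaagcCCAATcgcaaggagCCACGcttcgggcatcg
Hsp90b1, second: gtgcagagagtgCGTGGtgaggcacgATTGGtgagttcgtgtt
Creld2: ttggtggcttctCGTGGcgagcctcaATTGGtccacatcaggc
Calr: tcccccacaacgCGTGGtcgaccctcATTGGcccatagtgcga
Pdia6: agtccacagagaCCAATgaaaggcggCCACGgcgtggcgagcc
Derl3: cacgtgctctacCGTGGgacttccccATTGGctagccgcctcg

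A second form, the ER stress response element II (ATTGG, any base, CCACG), was found in Dnajb11 and Herpud1 (0.0365% of all promoters), and neither gene passed the test in a tissue. The UPR element TGACGTGG was found in Sec24d (0.676% of promoters). The core of the amino acid response element through which ATF4 acts (TGATG, any base, AA) was in 4 of the 35 windows (11.4%, against 3.97% of all promoters), those of Asns, Chac1, Trib3 and Herpud1, of which Asns and Chac1 fell in the thyroid. A match of letters does not show that a factor binds there. The cores of these 2 genes are shown with 5 bases on either side and the fixed letters in capitals, at chr6:7693220-7693237 for Asns (−) and chr2:119351044-119351061 for Chac1 (+), where it lies on the opposite strand and reads TT, any base, CATCA.
Asns: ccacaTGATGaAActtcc
Chac1: tgccgTTgCATCActcct

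In the thyroid, the 40 genes had a median log2 change of −0.28 against −0.03 for all 15200 genes tested. The 11 that fell made up 27.5% of the set, where 18.1% of all genes tested fell and 19.7% rose (limma, adjusted p under 0.05). If library totals are taken without the 10 highest genes, 3629 genes fell and 2502 rose, and 14 members fell and none rose. All 3 K146Q libraries lay below all 3 WT libraries for 11 of the 40, against 25.7% of all genes, and above them for 1, Xbp1, against 26.6%. The libraries of 2 mice stood furthest apart for this set. WT mouse 2 was the lowest WT library for 32 of the 40 genes (38.0% of all genes tested) and K146Q mouse 83 the highest K146Q library for 39 of the 40 (36.1% of all genes). WT mouse 1 was the highest WT library for 25 (34.4% of all genes) and K146Q mouse 62 the lowest K146Q library for 26 (27.8%). The number of members that fell was 15 without WT mouse 2 and 13 without K146Q mouse 83, but 5 without WT mouse 1, 7 without WT mouse 43, 6 without K146Q mouse 60 and 4 without K146Q mouse 62.

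**Figure D1:**
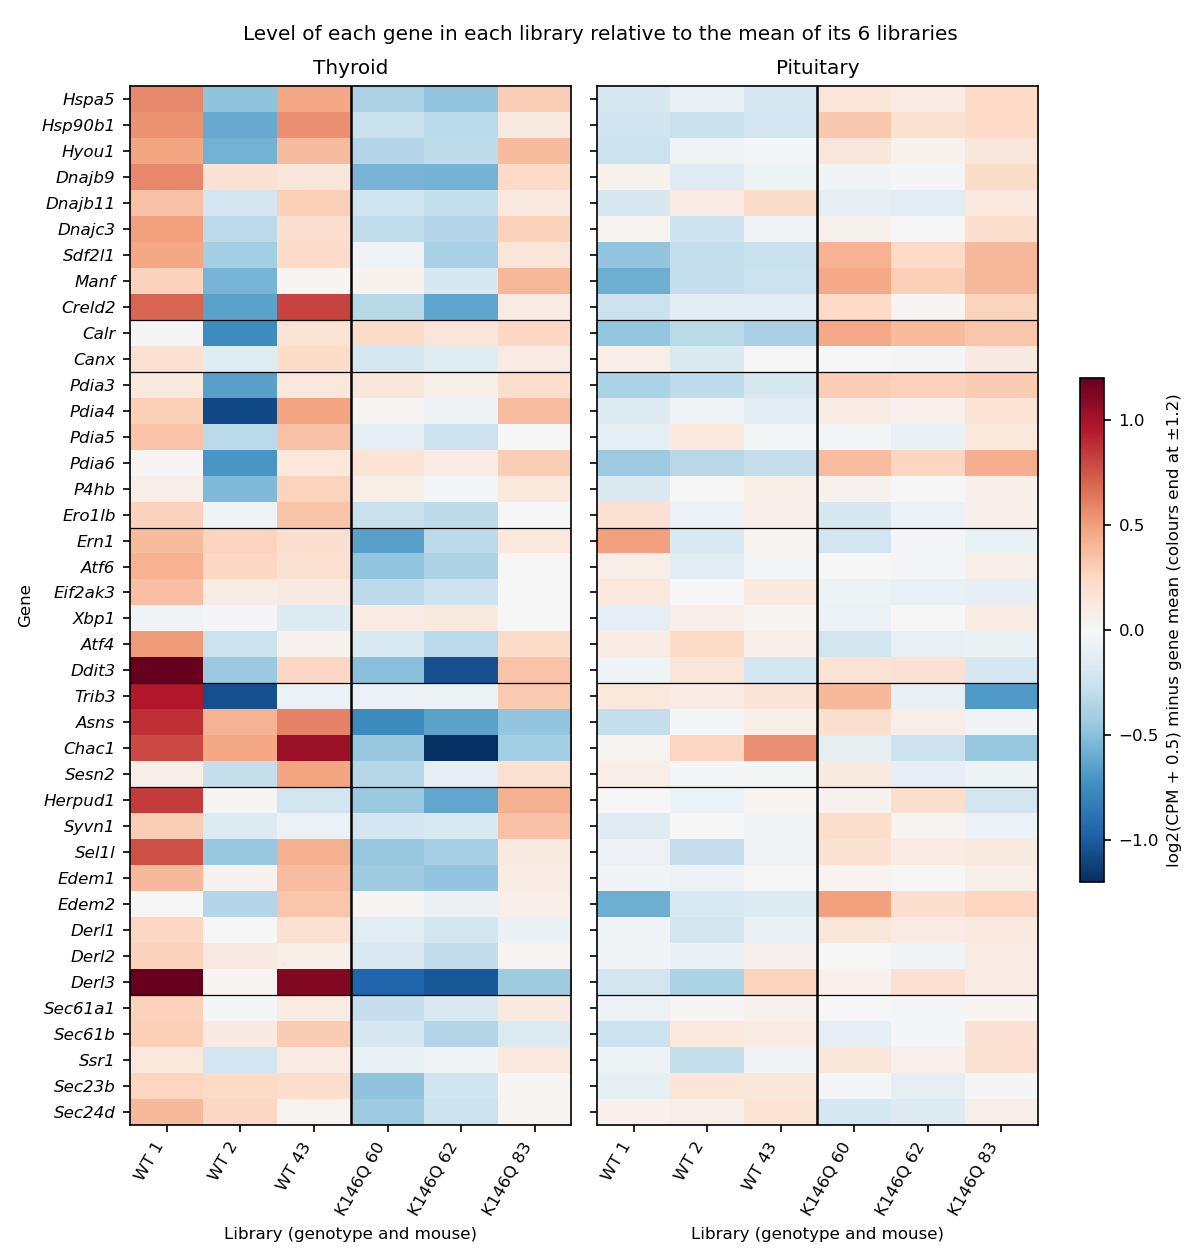
Heat map of the 40 genes (rows, by role) in the 6 thyroid and 6 pituitary libraries (columns), as log2(CPM + 0.5) minus the gene's mean over the 6 libraries of that tissue. WT mouse 2 is the lowest WT thyroid library for 32 of the 40 genes and K146Q mouse 83 the highest K146Q thyroid library for 39, while 5 of the 9 chaperone rows rise in the K146Q pituitary and those of Dnajb9, Dnajb11 and Dnajc3 overlap between the genotypes.

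The 9 chaperones and co-chaperones showed the spread of the WT thyroids. Hspa5, which encodes BiP, was 5055, 2429 and 4685 CPM in WT and 2594, 2434 and 4151 CPM in K146Q thyroids (log2 change −0.38 ± 0.37, limma adjusted p = 0.459). Hsp90b1, the GRP94 gene, was 5198, 2352 and 5238 CPM in WT and 2983, 2860 and 3869 CPM in K146Q (log2 change −0.32 ± 0.37, limma adjusted p = 0.537). For both, WT mouse 2 lay below every K146Q library, so the groups overlapped. Dnajb9, a DnaJ partner of BiP that restrains IRE1α, had the largest difference of the group, 313, 238 and 231 CPM in WT against 142, 141 and 248 CPM in K146Q (log2 change −0.59 ± 0.23, limma adjusted p = 0.0767). None of the 9 passed the test, and 8 of the 9 had a negative log2 change, Creld2 by −0.57, Dnajb11 by −0.27, Dnajc3 by −0.25, Sdf2l1 by −0.19 and Hyou1 by −0.18, with Manf at 0.17. Without WT mouse 2, Hsp90b1, Dnajb11 and Creld2 were called lower (limma adjusted p = 0.0394, 0.0402 and 0.0089). Dnajb9 was called lower in 5 of 17 alternative settings.

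None of the lectins, disulfide isomerases and the oxidase passed the test in the thyroid. Calr was 4390, 2633 and 4988 CPM in WT and 5163, 4898 and 5259 CPM in K146Q (log2 change 0.40 ± 0.33, limma adjusted p = 0.378), and Canx 827, 659 and 850 CPM against 628, 657 and 778 CPM (−0.18 ± 0.15). Pdia3, which works with both lectins, was 2951, 1722 and 2953 CPM in WT and 2971, 2850 and 3133 CPM in K146Q. P4hb, the classical disulfide isomerase, was 1964, 1297 and 2249 CPM against 1964, 1849 and 2036 CPM. For Calr, Pdia3 and P4hb, WT mouse 2 was the lowest of the 6 libraries, and the groups overlapped for all 4 genes. Ero1lb, the oxidase that recharges the isomerases in secretory cells, was 556, 448 and 581 CPM in WT and 380, 368 and 455 CPM in K146Q (log2 change −0.39 ± 0.14, limma adjusted p = 0.0565). Log2 changes of the remaining isomerases were 0.37 for Pdia6, 0.22 for Pdia4 and −0.25 for Pdia5. The median log2 change of the 6 isomerase and oxidase genes was 0.17 and that of the 2 lectins 0.11, and both were negative (−0.01 and −0.12) after quantile normalization. Ero1lb was called lower in 6 of 17 alternative settings. Pdia5 was called lower in 1, without WT mouse 2 (limma adjusted p = 0.0148). Canx was called lower in 1, after quantile normalization (limma adjusted p = 0.0194), and Calr higher in 1, the joint fit of 18 libraries (adjusted p = 0.0443).

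The genes of all 3 stress sensors fell, where 18.1% of all genes tested in the thyroid did. Ern1, the IRE1α gene, was 90.9, 84.1 and 79.7 CPM in WT and 44.4, 56.2 and 76.4 CPM in K146Q thyroids (log2 change −0.55 ± 0.18, limma adjusted p = 0.0442). Atf6 was 153, 137 and 130 CPM in WT and 82.6, 88.9 and 116 CPM in K146Q (log2 change −0.56 ± 0.13, limma adjusted p = 0.0145). Eif2ak3, the PERK gene, was 102, 84.1 and 85.6 CPM in WT and 63.5, 66.6 and 79.5 CPM in K146Q (log2 change −0.37 ± 0.12, limma adjusted p = 0.0378). For each sensor every K146Q library lay below every WT library, with K146Q mouse 83 closest to WT. The call of Ern1 held in 8 of 17 alternative settings, in 1 of the 6 that left out a library. That of Eif2ak3 held in 12, in 2 of those 6, and that of Atf6 in 16, in 5 of the 6.

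The transcription factors downstream of the sensors did not pass the test in the thyroid. Xbp1, whose RNA is spliced by IRE1α, was 245, 248 and 226 CPM in WT and 269, 274 and 251 CPM in K146Q (log2 change 0.14 ± 0.08, limma adjusted p = 0.213), and values per gene do not tell its spliced from its unspliced form. Atf4, which is controlled mainly at translation, was 231, 136 and 167 CPM in WT and 143, 130 and 190 CPM in K146Q (log2 change −0.19 ± 0.21). Ddit3 ranged widely, with 75.3, 20.3 and 33.3 CPM in WT and 19.5, 13.2 and 35.5 CPM in K146Q (log2 change −0.81 ± 0.50, limma adjusted p = 0.236). The groups overlapped for Atf4 and Ddit3 and not for Xbp1.

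Among the targets of ATF4 and CHOP, 2 of 4 fell (against 18.1% of all genes tested), and these were among the steepest falls of the set. Asns, asparagine synthetase, was 82.3, 59.7 and 67.5 CPM in WT and 26.1, 28.3 and 31.9 CPM in K146Q thyroids (log2 change −1.26 ± 0.13, 0.419 of WT, limma adjusted p = 0.000456). Chac1, which degrades glutathione, was 9.54, 7.47 and 11.4 CPM in WT and 3.72, 1.65 and 3.87 CPM in K146Q (log2 change −1.53 ± 0.30, 0.347 of WT, limma adjusted p = 0.00626), on 28 to 189 reads a library. Every K146Q library lay below every WT library for both. Sesn2, a stress sestrin, was 49.1, 38.4 and 64.8 CPM in WT and 36.7, 42.8 and 53.0 CPM in K146Q, and Trib3, a pseudokinase that feeds back on ATF4, 30.9, 7.28 and 14.9 CPM against 14.9, 14.9 and 19.6 CPM. Neither differed beyond the spread of the libraries.

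Of the 8 ERAD genes, 3 fell in the thyroid, where 18.1% of all genes tested fell. Derl3, a derlin of the retrotranslocation channel, was 443, 191 and 404 CPM in WT and 95.9, 91.9 and 139 CPM in K146Q (log2 change −1.60 ± 0.32, 0.331 of WT, limma adjusted p = 0.00659), the largest change of the 40. Edem1, which helps to trim the mannose of misfolded glycoproteins, was 186, 145.98 and 184 CPM in WT and 105, 102 and 151 CPM in K146Q (log2 change −0.54 ± 0.17, limma adjusted p = 0.0383), and K146Q mouse 83 lay above WT mouse 2. Derl1 was 184, 155 and 176 CPM in WT and 142, 133 and 146.1 CPM in K146Q (log2 change −0.29 ± 0.09, limma adjusted p = 0.0388). The ligase adaptor Sel1l, at 1018, 433 and 803 CPM against 434, 452 and 643 CPM, and Herpud1, at 485, 274 and 232 CPM against 199, 175 and 365 CPM, overlapped between the groups. Derl2 did not overlap but missed the threshold (log2 change −0.30, limma adjusted p = 0.0571), and Syvn1 and Edem2 had log2 changes of −0.04 and 0.01. Derl3, Asns, Chac1 and Sec61b were called in all 17 alternative settings, the other 7 genes in 8 to 16 of them. Of the 6 fits that left out a library, Derl1 was called in 1, Edem1 and Sec24d in 2 each and Sec23b in 4.

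Sec61b, the small subunit of the translocon, was 146.1, 129 and 148 CPM in WT and 105, 93.7 and 107 CPM in K146Q thyroids (log2 change −0.47 ± 0.09, limma adjusted p = 0.00566). Sec23b and Sec24d, coat proteins of the COPII vesicles that leave the ER, fell as well. Sec23b was 131, 130 and 127 CPM in WT and 78.4, 92.8 and 111 CPM in K146Q (log2 change −0.47 ± 0.12, limma adjusted p = 0.0196), and Sec24d 165, 151 and 130 CPM against 93.2, 106 and 129 CPM (−0.45 ± 0.14, adjusted p = 0.0383). Sec61a1, the channel subunit, was 452, 366 and 399 CPM against 308, 329 and 401 CPM, and Ssr1 418, 325 and 409 CPM against 363, 375 and 415 CPM. Their groups overlapped.

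**Figure D2:**
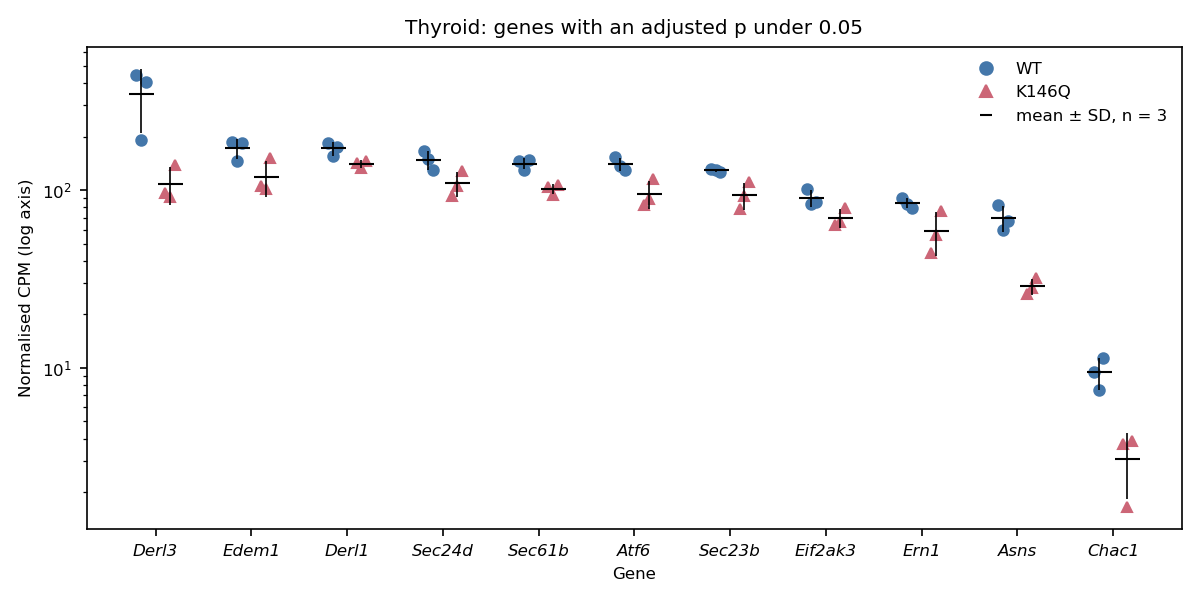
CPM (log axis) of the 11 genes that fell in the K146Q thyroid, 1 point per library, with the mean and SD of the 3 libraries of each genotype. All K146Q points lie below all WT points except for Edem1, and Derl3, Asns and Chac1 are the farthest apart.

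Several cell type markers differed in the same thyroid libraries. Thyroglobulin, the main follicular product, was 349907, 357296 and 293439 CPM in WT and 83869, 96214 and 130421 CPM in K146Q. The groups did not overlap, but it did not pass the test (log2 change −1.71 ± 5.14, limma adjusted p = 0.82), with an SE far above the spread of its libraries. Its mean ± SD was 333547 ± 34931 CPM in WT and 103501 ± 24116 CPM in K146Q. With that SE the test cannot show that this RNA was unchanged. The study's paper reports it as significantly lower in K146Q mice. Of the 10 follicular markers 3 rose and 2 fell, and none was at 0. The 3 parathyroid markers fell, with a sum of 3454, 6409 and 4129 CPM in WT and 1569, 522.7 and 621.7 CPM in K146Q, mostly Pth, and of the 3 C cell markers 2 fell and 1 rose, with a sum of 8898, 14899 and 10045 CPM against 3490, 1314 and 1653 CPM, mostly Chga. All 5 adipocyte markers fell, from 556.2, 579.4 and 745.5 CPM to 186.6, 105.1 and 97.6 CPM with Fabp4 the most abundant, and 3 of the 4 brown adipocyte markers fell, from 260.4, 193.6 and 96.95 CPM to 21.21, 17.28 and 3.752 CPM. In the other direction, all 10 proliferation genes rose (110, 72.58 and 117.2 CPM against 252.9, 249.9 and 308.5 CPM, Mki67 highest), as did 3 of 4 tested leukocyte markers (89.04, 70.24 and 83.36 CPM against 170.6, 159.8 and 171.8 CPM, Csf1r highest) and 2 of 4 endothelial markers.

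Of 5 fibroblast markers 3 rose and 2 fell, with a sum of 1249, 994.9 and 1254 CPM in WT and 2446, 2758 and 2821 CPM in K146Q, Col3a1 highest. Of 7 salivary gland markers, 3 were tested, of which 2 rose and 1 fell. Their sum was 117.8, 67.89 and 99.6 CPM in WT and 1048, 1165 and 837.6 CPM in K146Q, Dcpp1 highest, while Bpifa2, Smr3a and Pip were at 0 in all thyroid libraries. Plasma cells, which are rich in ER chaperones, had a marker sum of 45.28, 37.21 and 42.16 CPM against 48.37, 50.3 and 47.42 CPM, with Sdc1 highest and 1 of 5 tested markers higher. Skeletal muscle markers varied within both genotypes (273.4, 3885 and 5663 CPM against 3404, 740.1 and 600.1 CPM) and none passed the test. In such bulk RNA fewer cells of a type and less RNA per cell cannot be told apart, and the part of these markers in the result was not tested.

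In the pituitary, the 40 genes had a median log2 change of 0.08 against −0.01 for all 15589 genes tested. The 9 that rose made up 22.5% of the set, where 6.36% of all genes tested rose and 3.5% fell. If library totals are taken without the 10 highest genes, 841 genes rose and 885 fell, and 7 members rose and 2, Chac1 and Atf4, fell. All 3 K146Q libraries lay above all 3 WT libraries for 15 of the 40, against 16.7% of all genes, and below them for 3 (Eif2ak3, Atf4 and Chac1), against 14.3%. No library was the lowest or highest of its group for more than 24 of the 40 genes. K146Q mouse 62 was the lowest K146Q library for 24 (29.8% of all genes).

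Of the 9 chaperones and co-chaperones, 5 rose in the pituitary, where 6.36% of all genes tested rose. Hspa5 was 894, 961 and 887 CPM in WT and 1127, 1091 and 1200 CPM in K146Q pituitaries (log2 change 0.32 ± 0.07, 1.25 fold, limma adjusted p = 0.0268). Hsp90b1 was 743, 728 and 751 CPM in WT and 1098, 996 and 1036 CPM in K146Q (log2 change 0.49 ± 0.07, 1.41 fold, limma adjusted p = 0.00232). Manf, a secreted factor that binds BiP, was 137, 169 and 172 CPM in WT and 281, 250 and 270 CPM in K146Q (log2 change 0.75 ± 0.10, 1.68 fold, limma adjusted p = 0.00136). In each of these the K146Q libraries lay close together and above every WT library. Sdf2l1, a partner of the ER DnaJ proteins, was 45.6, 51.9 and 52.6 CPM against 84.7, 74.8 and 83.2 CPM (1.61 fold, limma adjusted p = 0.00124), and Creld2, a secreted protein induced by ER stress, 39.6, 43.5 and 43.5 CPM against 56.1, 48.1 and 57.4 CPM (1.27 fold, limma adjusted p = 0.0432).

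The smaller changes were less firm than the larger ones. Hspa5 was called in 7 and Creld2 in 8 of 17 alternative settings, each in 1 of the 6 that left out a library, and after quantile normalization the log2 change of Hspa5 was −0.07 (limma adjusted p = 0.537). Sdf2l1, Manf, Calr and Pdia6 were called in all 17, Hsp90b1 in 15, and Pdia3 and Edem2 in 16. The other chaperones did not pass the test: Hyou1, a nucleotide exchange factor of BiP, was 349, 403 and 411 CPM in WT and 458, 428 and 456 CPM in K146Q, and Dnajb9, Dnajb11 and Dnajc3 overlapped between the groups (log2 changes 0.11, −0.08 and 0.17).

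Calr had the largest change of the 40 in the pituitary. It was 621, 685 and 653 CPM in WT and 1176, 1114 and 1077 CPM in K146Q (log2 change 0.78 ± 0.07, 1.72 fold, limma adjusted p = 0.00027). Canx, the membrane-bound lectin with the same substrates, was 479, 401 and 451 CPM in WT and 453, 444 and 488 CPM in K146Q (log2 change 0.06 ± 0.08, limma adjusted p = 0.702). The groups overlapped for Canx and were far apart for Calr.

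Of the 6 isomerase and oxidase genes, 2 rose, against 6.36% of all genes tested. Pdia6 was 214, 230 and 238 CPM in WT and 375, 346 and 392 CPM in K146Q (log2 change 0.70 ± 0.07, 1.63 fold, limma adjusted p = 0.00053). Pdia3 was 855, 903 and 974 CPM in WT and 1367, 1346 and 1376 CPM in K146Q (log2 change 0.58 ± 0.07, 1.5 fold, limma adjusted p = 0.00137). P4hb, of similar abundance, was 625, 702 and 742 CPM against 725, 705 and 737 CPM (0.07 ± 0.08), and Ero1lb 49.9, 41.7 and 46.4 CPM against 38.4, 41.7 and 45.9 CPM. Both overlapped between the groups, and Pdia4, at 152, 165 and 155 CPM against 180, 175 and 189 CPM, did not overlap but missed the threshold (limma adjusted p = 0.0959). Pdia5 had a log2 change of 0.01.

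None of the 6 sensor and transcription factor genes passed the test in the pituitary. Ern1 was 130, 81.3 and 94.3 CPM in WT and 78.7, 90.9 and 87.6 CPM in K146Q, and Atf6 90.1, 78.1 and 83.7 CPM against 85.2, 84.4 and 89.2 CPM (log2 change 0.04 ± 0.08). Xbp1 was 215, 245 and 234 CPM in WT and 221, 231 and 247 CPM in K146Q (log2 change 0.01 ± 0.08, limma adjusted p = 0.948), and Ddit3 18.8, 21.5 and 16.6 CPM against 21.9, 22 and 16.8 CPM. Eif2ak3 and Atf4 had all K146Q libraries below WT, Eif2ak3 with 80.0, 73.4 and 79.7 CPM against 70.1, 69.0 and 68.3 CPM (log2 change −0.17 ± 0.07, limma adjusted p = 0.178). Atf4 was 121, 133 and 119 CPM in WT and 97.2, 107 and 107 CPM in K146Q (log2 change −0.26 ± 0.08, limma adjusted p = 0.0636).

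The targets of ATF4 and CHOP did not pass the test either. Asns was 53.1, 63.9 and 68.3 CPM in WT and 74.3, 68.0 and 63.4 CPM in K146Q (log2 change 0.15 ± 0.11), and Sesn2 23.9, 22.4 and 22.4 CPM against 24.4, 21.1 and 21.7 CPM. Chac1 was 8.05, 9.49 and 11.7 CPM in WT and 7.22, 6.48 and 5.62 CPM in K146Q (log2 change −0.55 ± 0.16, limma adjusted p = 0.0592), with no overlap between the groups, and Trib3 had a log2 change of −0.25. Of the ERAD genes only Edem2, which starts the trimming of mannose, rose, from 35.3, 47.0 and 47.6 CPM to 75.3, 61.1 and 64 CPM (log2 change 0.63 ± 0.13, 1.54 fold, limma adjusted p = 0.0143). Sel1l was 199, 172 and 204 CPM against 236, 223 and 224 CPM (adjusted p = 0.0774), Derl1 134, 117 and 129 CPM against 151, 147 and 148 CPM (adjusted p = 0.0755), and Herpud1, at 150, 143 and 152 CPM against 155, 174 and 129 CPM, overlapped. Log2 changes of the other ERAD genes were 0.22 for Derl3, 0.12 for Syvn1, 0.06 for Edem1 and 0.03 for Derl2. In the translocon group Sec61a1 stayed within its spread, at 183, 194 and 199 CPM against 193, 189 and 195 CPM, and Ssr1 was 294, 252 and 299 CPM against 336, 318 and 346 CPM (limma adjusted p = 0.0922), while Sec61b, Sec23b and Sec24d had log2 changes of 0.04, −0.11 and −0.19.

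**Figure D3:**
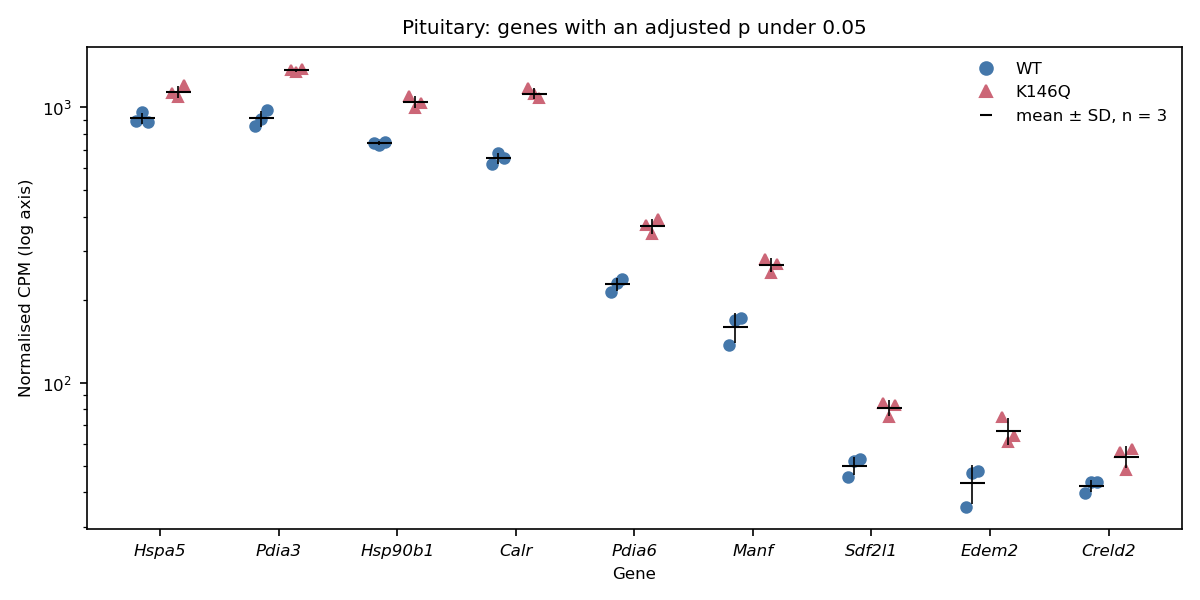
CPM (log axis) of the 9 genes that rose in the K146Q pituitary, 1 point per library, with the mean and SD of the 3 libraries of each genotype. All K146Q points lie above all WT points in each of the 9.

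The thyrotroph markers rose in the same pituitary libraries. Their sum was 3967, 3461 and 4674 CPM in WT and 29125, 26730 and 21963 CPM in K146Q, mostly Cga, and all 4 rose. The 10 pituitary hormone cell markers, which share Cga and Tshb with that list, had a sum of 133935, 166841 and 257290 CPM against 110327, 120174 and 113607 CPM, Gh highest, with 2 higher and 1 lower. Plasma cell markers had a sum of 41.6, 40.72 and 41.41 CPM in WT and 24.41, 27.16 and 24.78 CPM in K146Q, mostly Sdc1, with 1 of the 3 that were tested, of 6 listed, lower. Leukocyte markers rose for 3 of 4 tested (40, 38.26 and 41.52 CPM against 91.02, 77.8 and 60.85 CPM, Csf1r highest). Of the 2 parathyroid markers tested 1 rose, Casr (11.61, 11.32 and 9.228 CPM against 102.9, 64.47 and 46.4 CPM). Of the 2 C cell markers tested 1 rose, with Chga, the most abundant, at 999.5, 1126 and 1006 CPM against 1964, 1554 and 1273 CPM. Casr and Chga were present in every WT pituitary, so their values do not show parathyroid or C cells there. In the other lists 1 adipocyte, 1 salivary gland, 1 endothelial and 1 proliferation marker rose, and 1 fibroblast and 1 hypothalamic neuron marker fell. The part of all these markers in the chaperone result was not tested.

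In the hypothalamus the members showed no change with the mutation that could be detected with 3 mice a genotype. None of the 40 had an unadjusted p under 0.05 by limma (lowest 0.0663, Dnajc3), the median log2 change was −0.003 and the range −0.13 to 0.43. Of 15761 genes tested, 0% passed the test, with 645 at an unadjusted p under 0.05. On the recovered reads edgeR called no gene and DESeq2 called 3 higher and 6 lower, none of them a member.

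The chaperones and lectins of the hypothalamus lay within the spread of the mice. Hspa5 was 247, 249 and 251 CPM in WT and 231, 223 and 291 CPM in K146Q, and Hsp90b1 302, 305 and 332 CPM against 292, 279 and 314 CPM. Sdf2l1, with the largest change of the chaperones, was 5.07, 6.70 and 7.19 CPM against 7.36, 6.75 and 8.71 CPM. Calr was 290, 303 and 315 CPM against 287, 271 and 308 CPM, and Canx 412, 428 and 440 CPM against 407, 405 and 443 CPM. The groups overlapped for each of these. The isomerases Pdia3 (174, 181 and 194 CPM against 173, 172 and 185 CPM) and P4hb (119, 122 and 127 CPM against 119, 118 and 129 CPM) overlapped too, as did Pdia5 at 3.64, 3.47 and 4.35 CPM against 3.38, 4.35 and 4.57 CPM.

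Among sensors, transcription factors and their targets, Atf4 was 79.5, 83.2 and 81.1 CPM in WT hypothalami and 79.1, 75.4 and 80.0 CPM in K146Q, Xbp1 61.5, 67.4 and 63.4 CPM against 61.6, 59.9 and 74.1 CPM, and Ddit3 19.6, 19.5 and 17.2 CPM against 17.1, 17 and 19 CPM. Asns, which fell in the thyroid, was 69.4, 72.5 and 71.9 CPM against 71.7, 69.3 and 74.6 CPM, and Sesn2 14.4, 12.7 and 15.2 CPM against 15.4, 11.8 and 14.3 CPM. The groups overlapped for each of these, and the upper end of the range was Trib3 at 0.358, 0.520 and 0.638 CPM against 0.785, 1.25 and 0.592 CPM, on 6 to 25 reads a library. Of the ERAD genes Sel1l was 209, 204 and 208 CPM against 194, 198 and 218 CPM, Derl1 74.2, 77.6 and 78.7 CPM against 76.4, 74.2 and 76.0 CPM, and Derl3 1.91, 1.10 and 2.26 CPM against 1.15, 1.95 and 1.51 CPM. Ssr1 was 175, 195 and 195 CPM against 192, 181 and 197 CPM, and Sec24d 22.9, 26.5 and 23.9 CPM against 23.2, 27.3 and 26.2 CPM. Sec61a1, at 55.7, 55.6 and 54.0 CPM against 51.7, 57.7 and 57.9 CPM, overlapped between the groups as these did.

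**Figure D4:**
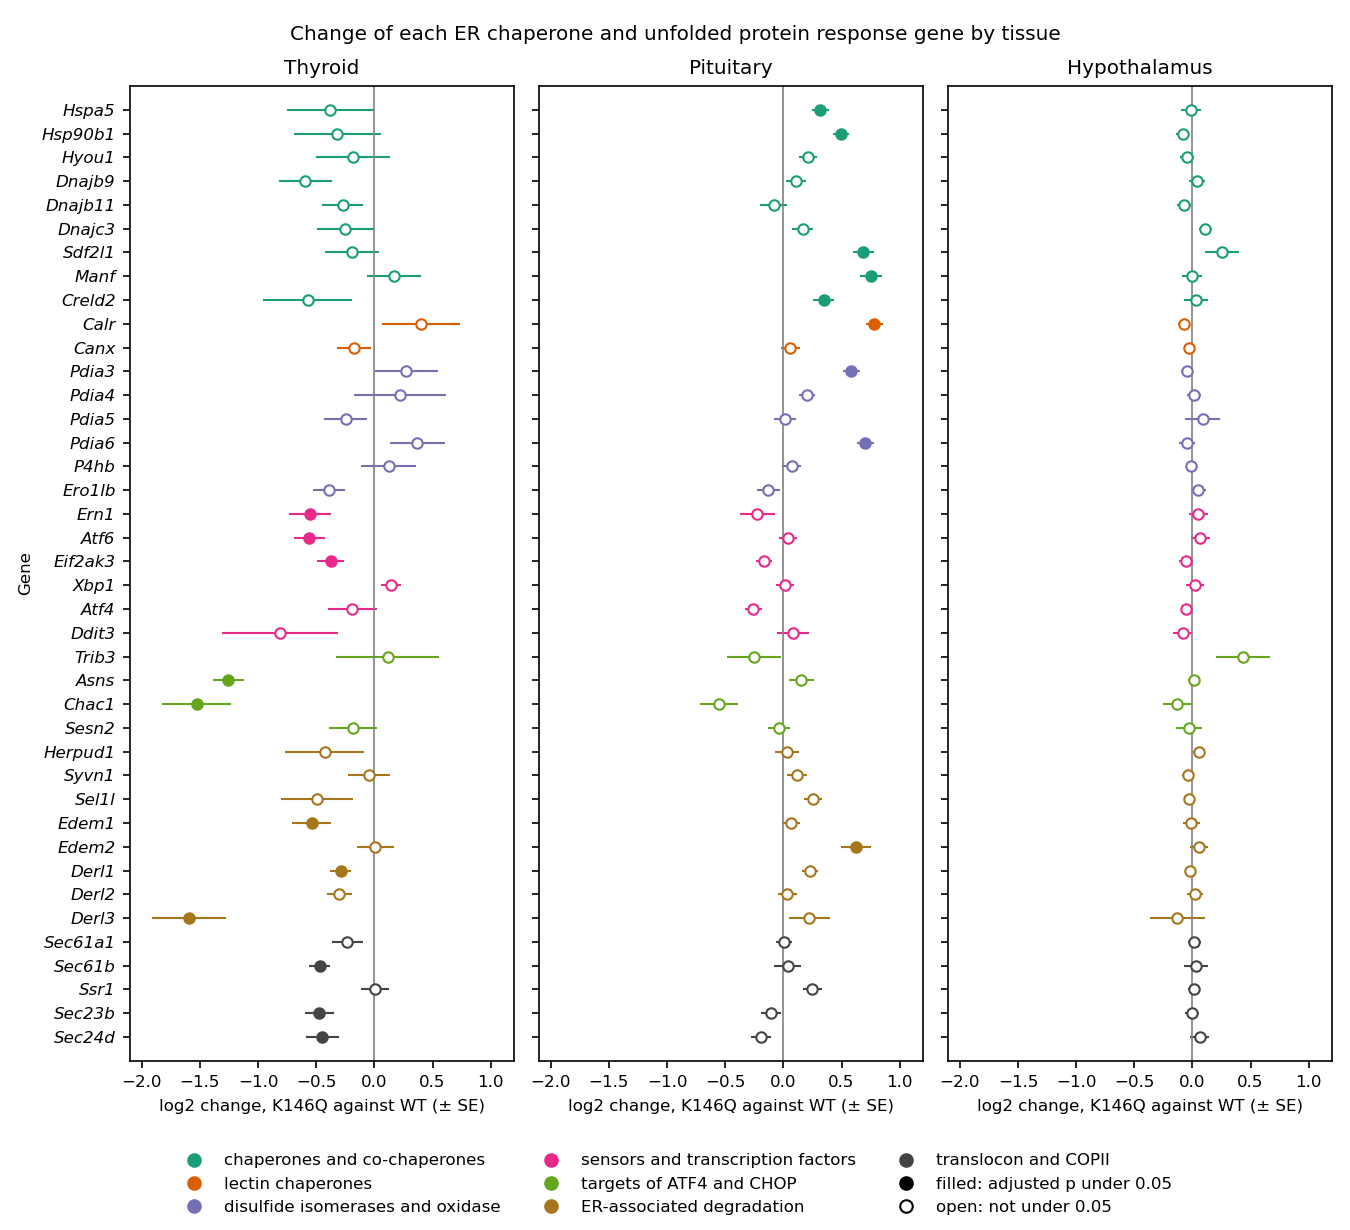
log2 change, K146Q against WT, with its SE, for the 40 genes grouped by role in the thyroid, pituitary and hypothalamus, filled where the limma adjusted p is under 0.05. The filled thyroid points lie left of 0 among sensors, ATF4 targets, ERAD and COPII genes, the filled pituitary points lie right of 0 mainly among chaperones and isomerases, and no hypothalamus point is filled.

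Whether the mutation acted differently between tissues was tested in 1 fit of all 18 libraries. The change in the thyroid was lower than that in the pituitary for 12 of the 40 genes (30%) and higher for none, against 17.4% of 17140 genes lower. The largest differences were those of Derl3 (log2 −1.82 ± 0.40, limma adjusted p = 0.00198) and Asns (−1.41 ± 0.16, adjusted p = 3.28e-06). Chac1, Sdf2l1, Hsp90b1, Dnajb9, Edem1, Edem2, Atf6, Derl1, Derl2 and Sec61b were the others. Hspa5 (−0.70 ± 0.31, limma adjusted p = 0.0971), Calr (−0.38 ± 0.22, adjusted p = 0.203) and Pdia6 (−0.34 ± 0.21, adjusted p = 0.236) did not pass, although they were called in the pituitary and not in the thyroid, so their changes are not shown to differ between these tissues. The number of members with a lower change in the thyroid was 4 without mouse 1 or mouse 62, 6 without mouse 60, 8 without mouse 43 and 21 without mouse 2. Hspa5, Calr and Pdia6 were among the 21 (limma adjusted p = 0.00632, 0.000781 and 0.00394), and Hspa5 also passed without mouse 83 (adjusted p = 0.0433).

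Against the hypothalamus, the thyroid change was lower for 10 of the 40 (25%, against 15.2% of all genes) and higher for none. Asns differed by log2 −1.27 ± 0.16 (limma adjusted p = 1.22e-05) and Chac1 by −1.40 ± 0.32 (adjusted p = 0.00325), and these 2 were called in every alternative run. The number was 2 without mouse 62, 5 without mouse 60 and 15 without mouse 2. The pituitary change was higher than the hypothalamic one for 1 of the 40 (2.5%, against 2.29% of all genes), Calr, by 0.85 ± 0.22 (limma adjusted p = 0.0429). With each mouse as a fixed replicate block, Calr missed the threshold (adjusted p = 0.0516) and Pdia6 passed it (adjusted p = 0.0381), and with an estimated correlation between the libraries of a mouse both passed (adjusted p = 0.0337 and 0.0455). Calr was not called when mouse 1, 43, 60, 62 or 83 was left out. These comparisons share libraries with one another and are not independent.

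The 3 WT tissues differed in the level of nearly the whole set. WT thyroid was higher than WT pituitary for 34 of the 40 genes (37% of all genes were higher) with a median log2 difference of 1.08, higher than WT hypothalamus for 38 (41.9% of all genes) with a median of 2.63, and WT pituitary was higher than WT hypothalamus for 36 (37% of all genes) with a median of 1.24. Derl3 was 59.9 fold higher in thyroid than in pituitary and 148 fold higher than in hypothalamus (limma adjusted p = 3.39e-12 and 9.43e-14). Creld2 (13.1 fold), Ero1lb (11.3 fold), Pdia4 (9.67 fold) and Sdf2l1 (7.32 fold) followed between thyroid and pituitary. Ern1, Xbp1, Asns, Chac1, Sec23b and Sec24d did not pass the test between these tissues. With library totals taken without the 10 highest genes, the thyroid was higher than the pituitary for 28 members and lower for 4, and the median was 0.79. All 3 of these comparisons mix the levels of genes within cells with the cell types each tissue holds.

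Levels can be set between genes only per length, here as CPM per kb of annotated exon with the isoforms of a gene merged. In WT thyroid Calr was the highest at 1390 ± 425 (SD, n = 3), followed by Hsp90b1 at 1057 ± 410, Hspa5 at 959 ± 336, Pdia3 at 810 ± 226, Pdia4 at 703 ± 334 and P4hb at 642 ± 171, and neighbours in this order lay within one another's SD. The lowest were Chac1 at 5.78 ± 1.19 and Trib3 at 8.32 ± 5.67. In WT pituitary Pdia3 (290 ± 19.0), P4hb (241 ± 20.7), Calr (227 ± 11.2) and Hspa5 (216 ± 9.62) led. Derl3, at rank 10 of the 40 in the thyroid with 174 ± 68.0 CPM per kb, was the last in the pituitary at 2.52 ± 0.674. In WT hypothalamus Calr (105 ± 4.39) and Canx (90.9 ± 3.07) led, and the spread between mice was smaller than in the thyroid.

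**Figure D5:**
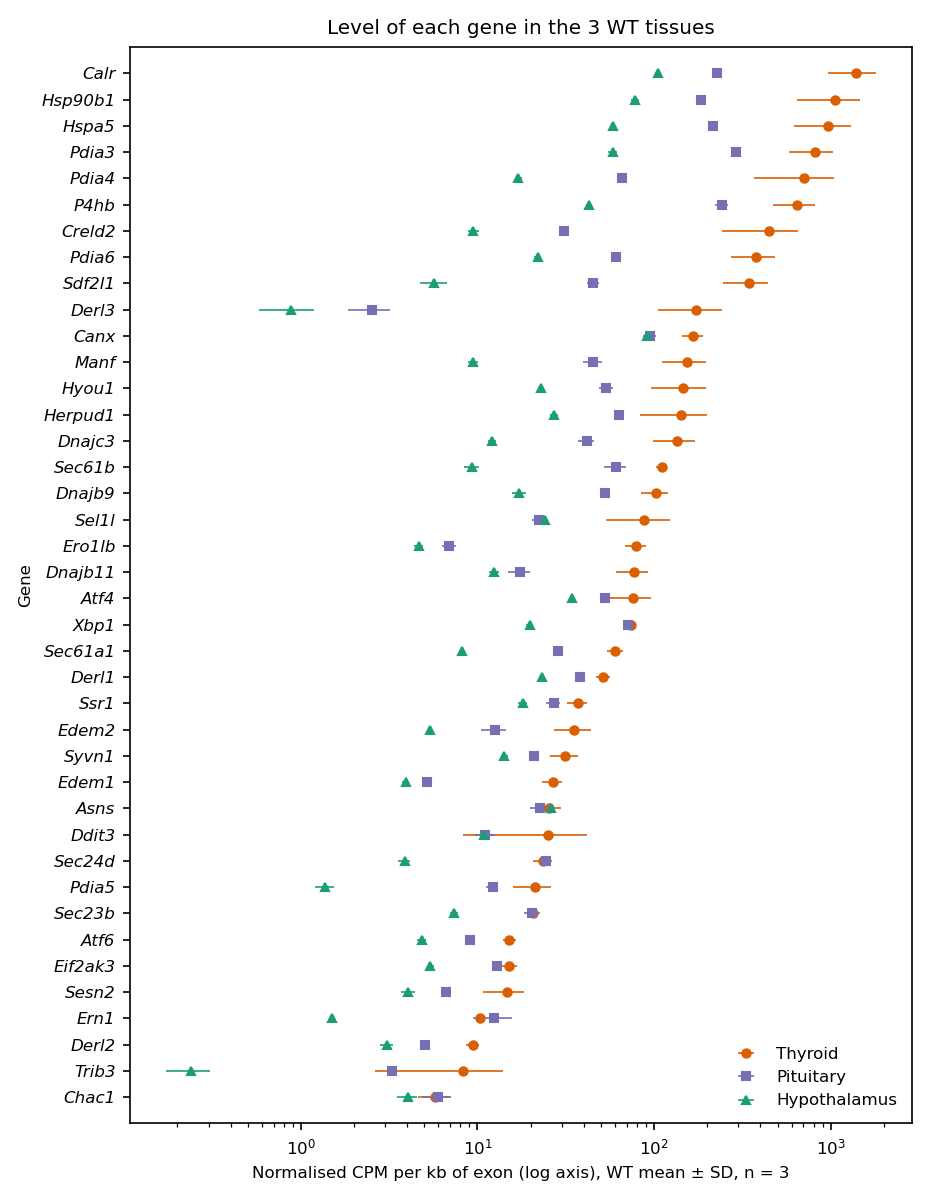
CPM per kb of exon (log axis) of the 40 genes in WT thyroid, pituitary and hypothalamus, mean of 3 mice with SD, ordered by the thyroid level. Thyroid points lie highest for most genes, and Derl3 has the widest gap between tissues.

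The genes whose values carry these results lie as follows in GRCm38 (GENCODE M21), and their counts are summed over exons. Calr spans chr8:84841850-84846934 (−), Hspa5 chr2:34771970-34777547 (+), Pdia6 chr12:17266545-17284770 (+), Sdf2l1 chr16:17130138-17132383 (−) and Manf chr9:106838312-106891979 (−). Asns spans chr6:7675169-7693254 (−), Chac1 chr2:119351229-119354381 (+), Derl3 chr10:75893413-75895941 (+) and Sec61b chr4:47474658-47483242 (+). Exons of Manf share 166 bases with 4930524O07Rik, and others with Dcaf1, on the opposite strand, those of Eif2ak3 485 with Gm43292, those of Hsp90b1 415 with 1810014B01Rik and those of Pdia6 50 with Atp6v1c2. Whether the counting used strand is not stated, so reads there may come from either gene.

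Other genes of the pathway were taken in 7 lists of 184 genes that hold none of the 40. In the thyroid 19 of 180 tested rose (10.6%) and 28 fell (15.6%), both below the shares of all genes (19.7% and 18.1%). In the pituitary 29 of 178 rose (16.3%, against 6.36% of all genes) and 4 fell (2.25%, against 3.5%). In the hypothalamus none of 180 passed the test. If library totals are taken without the 10 highest genes, 13 rose and 52 fell in the thyroid, where the share that fell (28.9%) was then above that of all genes (23.6%), as it was after quantile normalization (21.1% against 19.9%). In the pituitary 25 rose (14.0%, against 5.29%) and 8 fell with those totals.

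Of 37 genes of amino acid supply and the integrated stress response, 11 fell in the thyroid (29.7%, against 18.1% of all genes) and 2 rose (5.41%, against 19.7%). Aldh1l2, a mitochondrial enzyme of folate metabolism, was 58.0, 34.3 and 33.4 CPM in WT and 6, 6.88 and 7.91 CPM in K146Q (log2 change −2.47 ± 0.22, limma adjusted p = 0.000224), and Atf5, a transcription factor related to ATF4, 428, 287 and 316 CPM against 158, 144 and 183 CPM (−1.07 ± 0.16, adjusted p = 0.00202). Slc3a2, the heavy chain of amino acid transporters, rose from 265, 155 and 248 CPM to 336, 329 and 338 CPM (0.62 ± 0.19, adjusted p = 0.0356), and Ddit4 from 46.4, 33.0 and 64.5 CPM to 74.1, 93.3 and 80.4 CPM. Of 21 genes of signal recognition, translocon and signal peptidase, 7 fell (33.3%), Srp54a (0.597 of WT) and Sec63 (0.604) the most, and 1 rose, Ssr2 (1.32 fold). Of 22 further ERAD genes 3 fell (13.6%), among them Edem3 (0.589 of WT) and Ubxn4 (0.75), and 2 rose, Aup1 (1.24 fold) and Erlin1 (1.23). With totals without the 10 highest genes, 16 fell and 2 rose in the first of these lists, 11 fell and 1 rose in the second, and 8 fell and none rose in the third. The shares that fell were then 43.2%, 52.4% and 36.4%, against 23.6% of all genes, so that of the ERAD list turned from below all genes to above them.

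Of 27 other ER folding enzymes in the thyroid 7 rose (25.9%, against 19.7% of all genes) and 2 fell (7.41%, against 18.1%), or 5 and 4 with totals without the 10 highest genes. Txndc12 rose 1.84 fold and Serpinh1, the collagen chaperone, 1.6 fold, from 138, 119 and 130 CPM to 202, 197 and 220 CPM. Qsox1 (0.674 of WT) and Tmx1 (0.784) fell. Of 26 genes of the oligosaccharyltransferase and the N-glycan precursor 2 rose (Alg8 and Mogs) and 1 fell (Magt1), or 1 and 4 with those totals, and of 27 COPII, cargo and retrieval genes 3 rose (Sec24b 1.64 fold) and 4 fell (Sec24a 0.712 of WT), or 2 and 8. With those totals the COPII share that fell (29.6%) was above that of all genes (23.6%), where it had been below (14.8% against 18.1%). Of 20 other regulators of the response 2 rose, Bcl2l11 (2 fold) and Creb3 (1.53 fold), and none fell, or 2 and 1. With the depositors' scaling, the shares that rose in the glycan, COPII and regulator lists were 7.69%, 11.1% and 10%, against 19.7% of all genes. Those that fell were 3.85%, 14.8% and 0%, against 18.1%. When each of the 6 thyroid libraries was left out in turn, Erlin1 was called in none of the fits, Tmx1 in 1, Alg8, Magt1, Aup1 and Sec24a in 2, Slc3a2 in 3, Ddit4 in 4 and Mogs in 5, and the other genes named from these lists in all 6.

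In the pituitary, 12 of the 27 other ER folding enzymes rose (44.4%, against 6.36% of all genes) and 1 fell, or 10 and 1 with totals without the 10 highest genes. Fkbp7 was 7.61, 8.29 and 6.95 CPM in WT and 25.6, 17.7 and 15.3 CPM in K146Q (log2 change 1.27 ± 0.18, limma adjusted p = 0.00214), and Fkbp11, like it an ER prolyl isomerase, 13.4, 16.2 and 21.8 CPM against 42.6, 32.7 and 40.3 CPM (1.17 ± 0.17, adjusted p = 0.00258). Clgn, a relative of calnexin, fell from 6.01, 7.26 and 6.66 CPM to 2.27, 3.83 and 4.26 CPM (−0.89 ± 0.21, adjusted p = 0.0266). Of 26 oligosaccharyltransferase and N-glycan genes 5 rose (19.2%), Rpn2 (1.6 fold) and Tusc3 (1.52 fold) the most, and none fell. Of 21 genes of signal recognition, translocon and signal peptidase 3 rose (14.3%), among them Sec11c (1.97 fold) and Ssr4 (1.57 fold), and Srp54a fell to 0.697 of WT, with 3 lower after that rescaling.

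The remaining pituitary lists had shares of rises from 5% to 11.1%, against 6.36% of all genes. Among the further ERAD genes Erlec1, a lectin that binds misfolded glycoproteins, rose 1.48 fold. Of 27 COPII, cargo and retrieval genes 3 rose (11.1%, Tmed3 1.86 fold and Lman1, the mannose-binding cargo receptor, 1.36 fold) and Sec24a fell to 0.723 of WT. Among 36 genes of amino acid supply and the integrated stress response 3 rose (8.33%) and Atf5 fell to 0.779 of WT. Nupr1, a small stress-induced nuclear protein, rose from 4.49, 3.37 and 3.99 CPM to 18.1, 12.5 and 13.6 CPM (log2 change 1.77 ± 0.17, limma adjusted p = 0.000276). Of 20 other regulators 1 rose, Creb3l1, an ER-anchored relative of ATF6, from 26.9, 38.3 and 58.3 CPM to 255, 164 and 136 CPM (log2 change 2.17 ± 0.28, adjusted p = 0.00133), a larger change than that of any of the 40. When each of the 6 pituitary libraries was left out in turn, Clgn was called in 2 of the fits, Atf5 in 3 and Sec24a in 4, and the other pituitary genes named from these lists in all 6.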

How the data were processed

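RNA-Seq of 3 tissues gave 18 libraries, numbered as 6 mice. Per the labels, the submitters' processing notes name bcl2fastq 2.17, Bowtie2 2.1.0, RSEM 1.2.15 and build mm10, without roles, and the collection of the thyroids is not described in the sources used here. The deposited tables hold a normalized signal per gene and library in CPM, scaled by the authors over the 18 libraries together. Each of the 432972 values was a whole number of reads (tolerance 0.1 read), with 3 reads equal to 0.133 to 0.190 CPM. The authors' own fold, p-value and FDR columns for each comparison were not used.

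log2(CPM + 0.5) was fitted with limma 3.58.1 (R 4.3.3) with a mean-variance trend, each tissue alone, for genes that reached 0.5 CPM in 3 or more libraries, with Benjamini-Hochberg adjustment over all genes tested and a threshold of 0.05. Fold changes are on that scale and understate the change of low genes. Differences between tissues came from 1 fit of 18 libraries with 6 group means. edgeR 4.0.16 and DESeq2 1.42.0 were run on the recovered reads as alternatives, with other filters, pseudocounts and scalings, and leaving out each mouse. The code was tested on simulated data. Same-numbered libraries of different tissues were taken to be from 1 mouse, as their titles share the number. Their deviations from the group means correlated by −0.027 to 0.174, and mouse was also fitted as a replicate block. That the 3 mice per group were separate animals is given by their numbers, and no 2 libraries agreed within sampling noise (lowest chi-square per degree of freedom 6.11).

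Exon lengths and positions are from GENCODE M21 (GRCm38) and promoters from RefSeq (GRCm38.p6). Fam8a1 in all tables and March6 in 2 were not matched. The members and lists were chosen with earlier results of these data known. In each tissue the text gives every library's value for the 2 members of each role group highest in CPM, not per length. The same holds for the group's member with the largest change, and in the thyroid and pituitary for the sensors and their transcription factors. Further members were given by choice after their values were seen. Of the other lists it names up to 2 rises and 2 falls, and 1 result is not reported here.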

Additional observations from a re-analysis of the deposited data

Results flagged for a closer look

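The change with the mutation differed between tissues, by the interaction in the joint limma fit of 18 libraries (adjusted p under 0.05), for the following members. All values are differences of log2 changes, and the comparisons share libraries.

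Between thyroid and pituitary the change was lower in the thyroid by −1.82 for Derl3 (thyroid −1.60, pituitary 0.22), −1.41 for Asns (−1.26 and 0.15) and −0.97 for Chac1 (−1.53 and −0.55). For the chaperone genes it was −0.88 for Sdf2l1 (−0.19 and 0.69), −0.81 for Hsp90b1 (−0.32 and 0.49) and −0.71 for Dnajb9 (−0.59 and 0.11). For ERAD genes it was −0.62 for Edem2 (0.01 and 0.63), −0.60 for Edem1 (−0.54 and 0.06), −0.52 for Derl1 (−0.29 and 0.23) and −0.33 for Derl2 (−0.335 before rounding, −0.30 and 0.03). Atf6 differed by −0.60 (−0.56 and 0.04) and Sec61b by −0.50 (−0.47 and 0.04). Derl3, Asns, Atf6 and Derl1 were called in every alternative run. Hsp90b1 and Derl2 were called least often, in 4 and 5 of the 11 runs.

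Between thyroid and hypothalamus the difference was −1.47 for Derl3, −1.40 for Chac1, −1.27 for Asns, −0.63 for Atf6, −0.53 for Edem1, −0.51 for Sec24d, −0.50 for Sec61b, −0.47 for Sec23b, −0.44 for Ero1lb and −0.27 for Derl1 (−0.265 before rounding). Hypothalamic log2 changes of these genes lay between −0.13 (Derl3) and 0.07 (Atf6). Derl1 was called in 4 of 11 alternative runs, and Ero1lb and Edem1 in 7. Between pituitary and hypothalamus it was 0.85 for Calr (0.78 and −0.07).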

How the results depend on the processing

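In the thyroid, members lower numbered 11 and lay between 10 and 16 under most settings, but 6 without a variance trend and 4 to 15 when 1 library was left out, and members higher numbered 1 (Calr) in the joint fit. In the pituitary, members lower numbered 0, but 1 (Chac1) with DESeq2 or quantile normalization, 2 (Chac1 and Atf4) with totals without the 10 highest genes, and 0 to 1 when 1 library was left out, and that scaling moved the members' median log2 change to 0.022. Pituitary members higher numbered 9, and 6 to 8 when 1 library was left out. After quantile normalization Hspa5 in the pituitary was −0.074. The cause of these shifts was not tested.

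With mouse as a replicate block, the members whose change was lower in thyroid than in pituitary numbered 13, either as a fixed effect or with an estimated correlation, and those lower than in hypothalamus numbered 12 or 14. For pituitary against hypothalamus the count was 1 with mouse fixed and 2 with an estimated correlation (Calr and Pdia6), 0 without a trend and 0 to 3 when 1 mouse was left out. Leaving out 1 mouse gave 4 to 21 members for thyroid against pituitary, where Pdia4 ranged from −0.509 (without mouse 2) to 0.316 (without mouse 43), and 2 to 15 lower and 0 to 1 higher for thyroid against hypothalamus. For WT thyroid against WT pituitary, totals without the 10 highest genes gave 4 members lower and a median of 0.789 (0.901 to 1.37 leaving out 1 mouse), and turned Eif2ak3 (−0.072), Xbp1 (−0.239) and Sec23b (−0.276). WT pituitary against WT hypothalamus had 1 member lower and a median of 1.17 with median-of-ratios scaling, and a median of 1.52 with totals without the 10 highest genes.

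Across all genes that scaling shifted the median log2 change to −0.12 in the thyroid and −0.06 in the pituitary, and the calls from 2992 higher and 2747 lower to 2502 and 3629 in the thyroid and from 991 and 546 to 841 and 885 in the pituitary. Pituitary genes lower numbered 356 without a trend, and leaving out 1 library gave 442 to 924 higher and 183 to 463 lower, and 1665 to 2499 lower in the thyroid. In the hypothalamus, leaving out 1 library gave 0 to 2 genes higher and 0 to 4 lower. With 3 mice a genotype, changes within the spread of the thyroid libraries were not detectable.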

Other observations

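K146Q mouse 83 was the highest of the 3 K146Q libraries for 39 of the 40 genes in the thyroid, for 21 in the pituitary and for 26 in the hypothalamus (36.1%, 38.0% and 36.0% of all genes tested). Its median distance above the other K146Q libraries over the 40 genes was 0.38 in the thyroid, 0.05 in the pituitary and 0.08 in the hypothalamus on the log2 scale. WT mouse 2, the lowest WT thyroid library for 32 of the 40, was the lowest for 17 in the pituitary and for 7 in the hypothalamus. Its median distance from the other WT libraries was −0.53, 0.003 and 0.05 in that order.

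WT thyroids also differed among themselves in markers of other tissues. Skeletal muscle markers summed to 273.4 CPM in WT mouse 1 and 3885 and 5663 CPM in WT mice 2 and 43, and parathyroid markers were highest in WT mouse 2 (6409 CPM). Pituitary hormone markers in thyroid libraries summed to 604.5 CPM in WT mouse 1 and 102.3 to 175.9 CPM in the other 5.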
